A study of Mus musculus with 6 samples.

Results

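Transcripts of the pituitary gland were followed array by array in RNA of E18.5 mouse brains. The set held 9 genes: the hormone genes Gh, Prl and Pomc, the hormone subunit genes Cga, Tshb and Lhb, the transcription factor genes Pou1f1 and Pitx1, and the receptor gene Ghrhr. They were chosen from these same arrays, because Gh and Pomc had read high in wild-type array 3, so the levels of the members and their differences between genotypes are given as a description without a test. Of the 9 genes, 8 had a probe set annotated to that gene alone, 13 probe sets in all out of 45037, and Pou1f1 had none.

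The arrays were 3 from Foxf2 mutant embryos and 3 from wild-type embryos, both on a C57/bl6 background, with 1 Affymetrix array per sample and total RNA as the starting material. Foxf2 is a forkhead transcription factor gene, and the labels describe neither the mutation nor its zygosity, nor whether the embryos were littermates. The labels give the tissue as the whole brain and do not say whether the pituitary was taken with it. The unit is the linear MAS5 intensity, the array software's brightness for a probe set. Each array was compared with the other 5 on the scale log2(intensity + 16), and the difference between an array and the mean of the other 5 is called its excess.

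The pituitary hangs below the hypothalamus on a stalk and lies in a pocket of the skull base, so it is anatomically separate from the brain. Its anterior lobe holds cell types named for their hormones: somatotrophs make growth hormone, lactotrophs prolactin, thyrotrophs and gonadotrophs the glycoprotein hormones, and corticotrophs the Pomc product ACTH. The intermediate lobe makes melanocyte-stimulating hormone from Pomc, and neurons of the hypothalamic arcuate nucleus also express Pomc. Growth hormone and the glycoprotein hormone genes have little expression in brain tissue itself. In RNA from a whole organ, fewer cells of a type and less RNA per cell cannot be told apart.

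The promoter sequences of Pomc, Cga and Tshb, which read high in the same array, and of Prl, which did not, are printed to show what letters their start regions share. Of the 9 genes, 6 were found in the RefSeq promoter table of GRCm38.p6, with 7 promoters between them, and Gh, Pitx1 and Ghrhr were not matched. Here each sequence is the 250 bases before the transcription start, 5′ to 3′ on the strand of the gene. Capitals mark the matches found on both strands. The searched letters were the TATA box, TATAAA. A core of the element bound by Pou1f1, TATNCAT, was searched too. The Pitx element was searched in the form TAATCC. Its other form was TAAGCC. Matches on opposite strands overlap in Tshb and Prl.
Pomc, chr12:3954695-3954944 (plus strand): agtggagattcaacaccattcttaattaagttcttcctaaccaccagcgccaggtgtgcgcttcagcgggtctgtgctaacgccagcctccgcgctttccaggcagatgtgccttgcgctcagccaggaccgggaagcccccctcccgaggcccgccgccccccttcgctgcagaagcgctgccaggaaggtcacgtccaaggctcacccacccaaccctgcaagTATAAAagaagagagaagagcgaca
Cga, chr4:34893529-34893778 (plus strand): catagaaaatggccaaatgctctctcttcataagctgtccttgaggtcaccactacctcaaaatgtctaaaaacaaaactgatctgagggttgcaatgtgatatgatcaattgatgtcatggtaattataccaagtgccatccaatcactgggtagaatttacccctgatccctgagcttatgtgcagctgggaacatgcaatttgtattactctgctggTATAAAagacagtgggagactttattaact
Tshb, chr3:102782715-102782964 (minus strand): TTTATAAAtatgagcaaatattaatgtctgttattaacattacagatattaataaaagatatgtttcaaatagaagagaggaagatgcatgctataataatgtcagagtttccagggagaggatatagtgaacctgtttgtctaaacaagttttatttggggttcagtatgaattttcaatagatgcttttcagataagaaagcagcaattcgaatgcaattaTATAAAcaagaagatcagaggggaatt
Prl, chr13:27057320-27057569 (plus strand): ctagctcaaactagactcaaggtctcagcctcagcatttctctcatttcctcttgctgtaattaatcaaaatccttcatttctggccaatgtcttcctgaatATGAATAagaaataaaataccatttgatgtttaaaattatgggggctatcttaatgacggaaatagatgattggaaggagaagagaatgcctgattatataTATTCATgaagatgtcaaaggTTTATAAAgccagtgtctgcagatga

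TATAAA was found in the 250 bases of 6 of the 7 promoters, 1 for each of the 6 genes and absent from the second of Pou1f1, and in 12.4% of all 32851 promoters. In Pomc it began 25 bases before the start, in Cga 30 and in Tshb 27. TATNCAT was found in 2 of the 7 promoters, those of Prl and the first of Pou1f1, and in 7.92% of all promoters; the 2 matches of Prl began 148 and 47 bases before the start. TAAGCC was found in 1 of the 7, that of Lhb, and in 8.20% of all promoters, while TAATCC was found in 0 of the 7 and in 6.25% of all. A match describes these letters and is not evidence of binding, and a missing match says only that the letters are not in this window.

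Array medians ran from 24.3 to 25.5 in mutants and from 23.1 to 23.6 in wild types, without overlap; 41.5% to 42.5% of probe sets in mutants and 43.5% to 44.0% in wild types read under 16. Among replicates, the typical log2 SD over tested probe sets was 0.13 in mutants and 0.12 in wild types. Foxf2 gave 8.06, 3.31 and 7.57 on mutant arrays, against 18.6, 24.4 and 13.8 on wild-type arrays, without overlap, on a probe set below the filter (a mean intensity of about 13.2, the 40th percentile) whose place relative to the mutation is not known here. Another Foxf2 probe set, dimmer still, read 0.42, 0.31 and 2.77 on mutant arrays and 0.83, 0.69 and 4.555 on wild-type arrays, with overlap. Sst, a neuropeptide gene of cortical and hypothalamic neurons, ran from 605 to 701 in mutants and from 667 to 701.5 in wild types. An excess above 1 was seen in 79 probe sets of mutant array 3 and in 23 of wild-type array 3, against 15 to 23 in each of the other 4 arrays (0.175% of probe sets in mutant array 3, 0.0511% in wild-type array 3, and 0.0511%, 0.04%, 0.0488% and 0.0333% in mutant arrays 1 and 2 and wild-type arrays 1 and 2).

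Gh encodes growth hormone and gave the widest range of the set. Its brightest probe set read 5.63, 9.57 and 203 in mutant arrays 1, 2 and 3, and 23.8, 7.47 and 1592 in wild-type arrays 1, 2 and 3. Wild-type array 3 was thus the highest and mutant array 3 the next, and the groups overlapped. This value lay at the 84.5th percentile of all probe sets in mutant array 3 and at the 98.6th in wild-type array 3, while in the other 4 arrays it lay between the 21.9th and the 50.1st.

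The 4 Gh probe sets gave the same picture. They read 158 to 203 in mutant array 3 and 1057 to 1592 in wild-type array 3, and their ratio of wild-type array 3 over mutant array 3 was 6.50 to 9.06. In each of the 4, wild-type array 1 came next, at 16.4 to 34.7, and mutant arrays 1 and 2 and wild-type array 2 read at most 11.8. So low on the scale, the order of those last 3 arrays changed from probe set to probe set. Of the 4, 3 are _x_at sets, a suffix given where probes may also bind related transcripts; the probe set with the suffix _a_at read 11.8, 7.49 and 158 in the mutant arrays and 23.4, 2.36 and 1427 in the wild-type arrays.

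Prl encodes prolactin, a hormone related to growth hormone and made by lactotrophs, which in mice become numerous only after birth. Prl read 1.10, 0.94 and 0.48 in the mutant arrays and 6.17, 0.48 and 5.37 in the wild-type arrays. These are values of the dimmest part of the array, at or below the 25.8th percentile everywhere. Wild-type array 3 had no Prl excess comparable to that of Gh (0.27 against 5.30 log2 units).

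Pomc encodes the precursor that is cut into ACTH and melanocyte-stimulating hormone. Its brighter probe set read 42.1, 26.0 and 59.2 in the mutant arrays and 33.0, 35.9 and 202 in the wild-type arrays. The other read 6.57, 12.5 and 33.6 in the mutant arrays and 1.94, 11.1 and 171 in the wild-type arrays. On both, wild-type array 3 was highest and mutant array 3 was next. The brighter probe set kept a level of 26.0 to 42.1 in the 4 arrays where Gh was low, at the 50.3rd to 58.8th percentile.

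Cga encodes the alpha subunit shared by the glycoprotein hormones, and Tshb the beta subunit that makes it thyroid-stimulating hormone. Cga read 1.49, 1.83 and 3.02 in the mutant arrays and 0.65, 0.80 and 107 in the wild-type arrays. It stood out in wild-type array 3 alone, 35.5 times the next array by intensity, although a ratio over a value so near the bottom of the scale has no firm size. Tshb read 2.49, 2.20 and 11.4 in the mutant arrays and 2.02, 7.46 and 83.1 in the wild-type arrays. Again wild-type array 3 was highest and mutant array 3 second, where Tshb lay at the 35.8th percentile.

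Lhb encodes the beta subunit of luteinizing hormone, made by gonadotrophs. It read 10.5, 10.3 and 11.6 in the mutant arrays and 6.42, 10.4 and 0.56 in the wild-type arrays, so wild-type array 3 was the lowest. All of these lay at or below the 36.8th percentile, in the dim part of the scale, so no direction is read from them. Lhb combines with Cga to make luteinizing hormone.

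Pitx1 encodes a homeodomain factor active throughout the developing pituitary, and Ghrhr the somatotroph receptor for growth hormone-releasing hormone. The brighter Pitx1 probe set read 7.46, 7.84 and 7.71 in the mutant arrays and 12.04, 7.54 and 8.46 in the wild-type arrays, and the other read 1.28 to 8.14 over all 6. Ghrhr read 9.26, 1.89 and 8.54 in the mutant arrays and 0.45, 2.05 and 8.80 in the wild-type arrays. Neither gene rose above an intensity of 12.04 on any array, and neither singled out wild-type array 3.

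**Figure D1:**
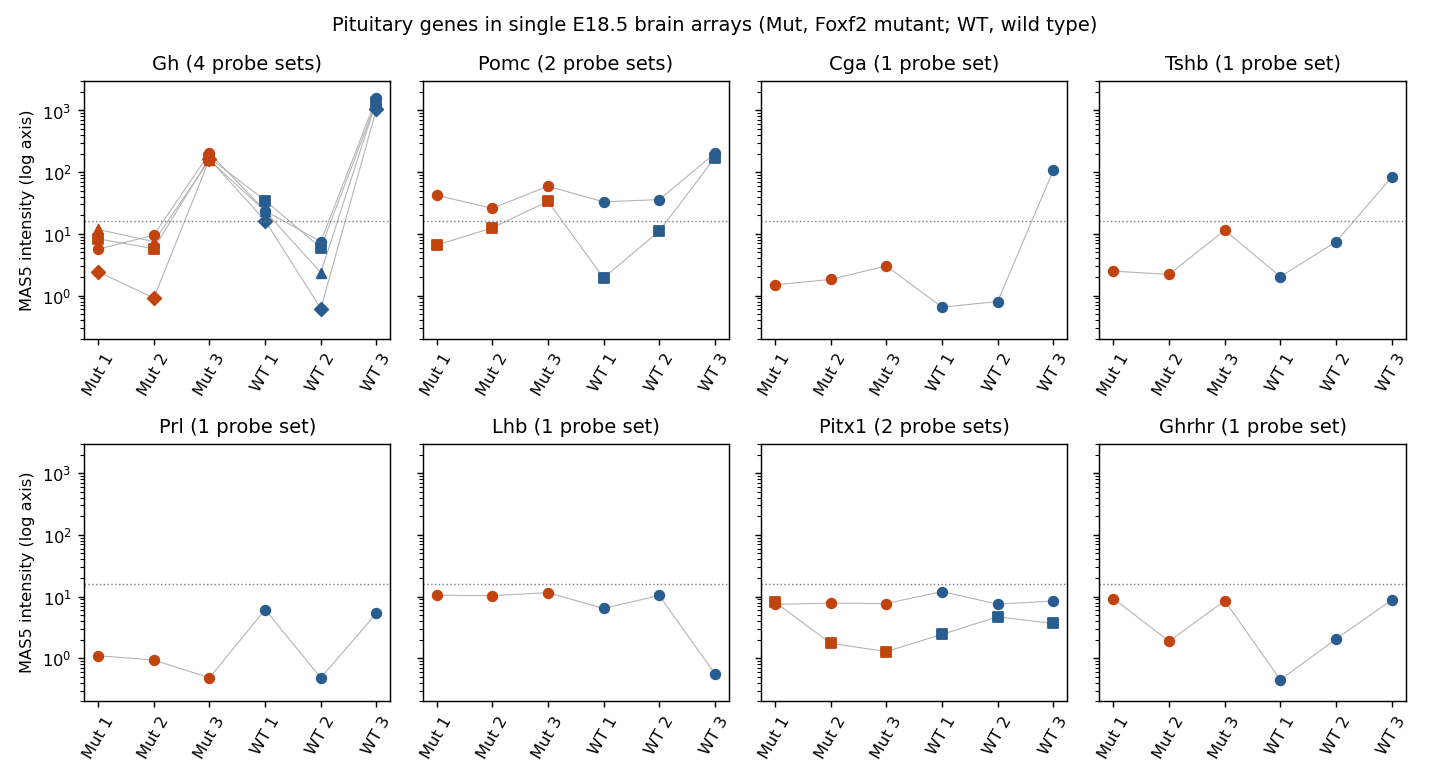
Intensity (log axis) of each pituitary probe set in the 3 mutant and 3 wild-type arrays, 1 panel per gene, with a marker shape per probe set and a dotted line at 16. Gh, Pomc, Cga and Tshb were highest in wild-type array 3, with Gh at 1057 to 1592, while Prl, Lhb, Pitx1 and Ghrhr stayed below 16 on every array.

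Set on a common scale, 8 of the 13 probe sets, from the 4 genes Gh, Pomc, Cga and Tshb, had an excess above 1 in wild-type array 3, where 0.0511% of all 45037 probe sets did. Nothing is read from this share, since Gh and Pomc were chosen for it. The excess was 5.10 to 5.30 for the Gh probe sets, 2.77 and 2.01 for Pomc, 2.81 for Cga and 2.25 for Tshb. Among all probe sets, these 8 took ranks 1 to 7 and rank 9 by excess in that array. The other 5 probe sets had values from -0.64 (Lhb) to 0.30 (Ghrhr).

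Only 6 of the 13 probe sets, those of Gh and Pomc, passed the filter on dim probe sets, and the 4 of Gh are low in most arrays and passed by their high ones. The dimmer Pomc probe set also passed by its high arrays. It read 1.94 to 12.5 outside both arrays 3, against 33.6 in mutant array 3 and 171 in wild-type array 3. Cga and Tshb did not pass despite their values in wild-type array 3. With wild-type array 3 set aside, mutant array 3 lay above the mean of the remaining 4 arrays by 2.73 to 3.14 for Gh, by 0.59 and 1.07 for Pomc, by 0.50 for Tshb and by 0.15 for Cga. That made 5 probe sets past 1, where 0.187% of all did. In all 8 probe sets of Gh, Pomc, Cga and Tshb wild-type array 3 was highest and mutant array 3 second, an order found in 2.26% of all probe sets. Nothing is read from that share, since Gh and Pomc were chosen for the first place. Of the 8 probe sets, 4 are of Gh alone, and for Cga the next place was 3.02 against 1.83, at the bottom of the scale.

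**Figure D2:**
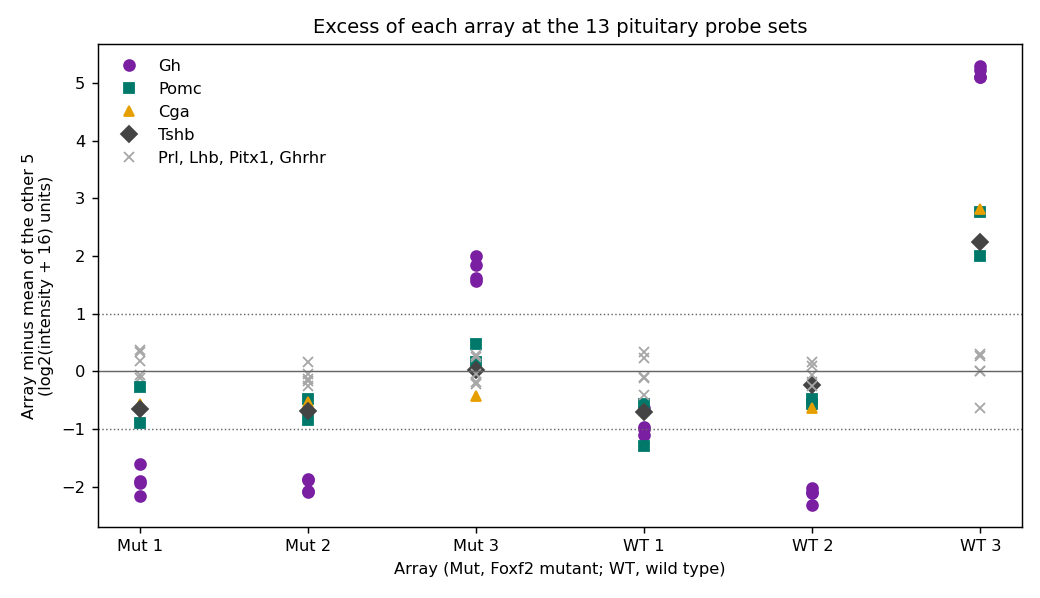
Excess of each array over the mean of the other 5, in log2(intensity + 16) units, for the 13 pituitary probe sets, with dotted lines at -1 and 1. The Gh points lie at 1.57 to 1.996 in mutant array 3 and at 5.10 to 5.30 in wild-type array 3; the other 4 arrays are each set against a mean that holds wild-type array 3.

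Between genotypes, the differences of Gh, Pomc, Cga and Tshb are given with their errors as a description. The brightest Gh probe set averaged 72.8 ± 113 in mutant brains and 541 ± 910 in wild-type brains (SD, n = 3 each), a log2 difference of -1.21 ± 2.20 (SE). For the pituitary genes the SE comes from the group SDs of the log2 values and not from limma. The brighter Pomc probe set averaged 42.4 ± 16.6 in mutant brains and 90.3 ± 96.7 in wild-type brains (SD, n = 3 each), a difference of -0.53 ± 0.75 (SE). Cga averaged 2.11 ± 0.80 in mutant brains and 36.2 ± 61.5 in wild-type brains, and Tshb 5.38 ± 5.25 in mutant brains and 30.9 ± 45.3 in wild-type brains (SD, n = 3 each). At each probe set of these 4 genes the SE of the log2 difference exceeded the difference itself. A single high array raises the difference and its SE alike, and Gh and Pomc were chosen for such an array. Nothing is therefore read from this comparison.

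The groups overlapped at 13 of 13 probe sets, where 17.3% of all probe sets had groups that did not. The genes were chosen for their values in these arrays, so nothing is read from this count. Gh and Pomc were chosen for wild-type array 3, so leaving it out had to raise their differences. Nothing is read from that shift. Without wild-type array 3 the log2 difference of the 4 Gh probe sets became 0.47 to 0.85, that of Pomc 0.17 and 0.53, that of Cga 0.11 and that of Tshb 0.03. Without wild-type array 3 and mutant array 3 together, the differences were -0.54 to -0.07 for Gh, -0.03 and 0.20 for Pomc, 0.08 for Cga and -0.16 for Tshb.

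**Figure D3:**
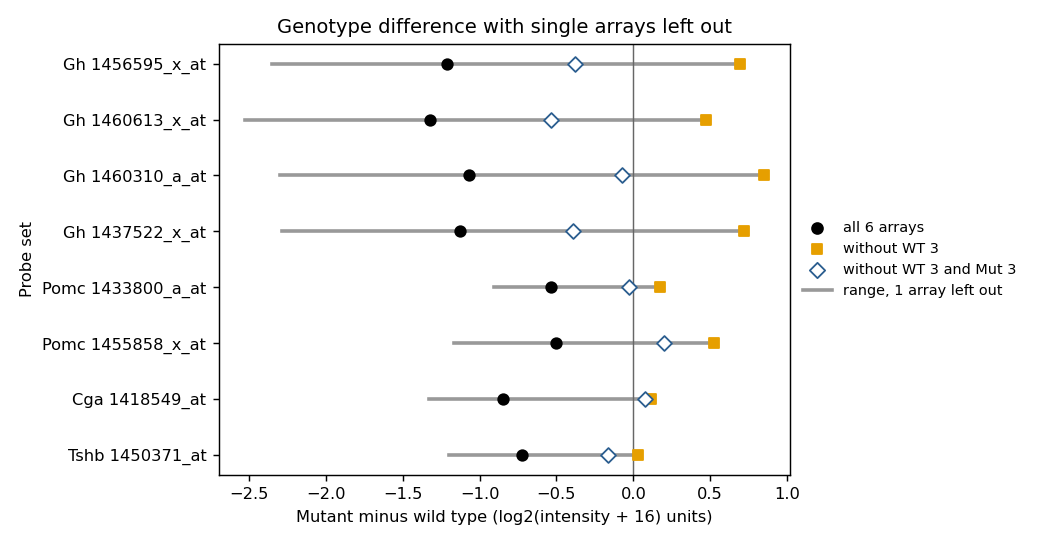
Log2 difference, mutant minus wild type, for the 8 probe sets of Gh, Pomc, Cga and Tshb with all 6 arrays (black), without wild-type array 3 (squares) and without both arrays numbered 3 (open diamonds); grey bars span the 6 values with 1 array left out. For each of the 8 the value without wild-type array 3 lies above 0, at 0.03 to 0.85, and the value with all arrays below 0. Gh and Pomc were chosen for that array, so a rise without it was built in.

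Other genes of the pituitary had no such excess. A list of 19 further anterior and intermediate lobe genes had 17 with a probe set, and 0 of these had an excess above 1 in any array. Their median excess was -0.02 in mutant array 3 and -0.01 in wild-type array 3. Lhx3, a factor needed for pituitary formation, read 5.03, 9.23 and 8.86 in the mutant arrays and 6.03, 4.82 and 14.3 in the wild-type arrays, highest in wild-type array 3 but dim throughout. Tbx19, the factor that switches on Pomc in corticotrophs, read 7.51 to 14.6 in the mutant arrays and 4.197 to 11.6 in the wild-type arrays. Fshb, the beta subunit gene of follicle-stimulating hormone, read at most 1.43 on any array. Isl1, a factor that motor and hypothalamic neurons also express, read 218 to 285 in the mutant arrays and 223 to 284 in the wild-type arrays.

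Between genotypes, 0 of the 8 list genes above the filter passed an adjusted p of 0.05 in limma (0.389% of the 27022 tested probe sets did, 0.366% higher and 0.0222% lower in the mutant), 1 had an unadjusted p under 0.05 (13.6% of all tested did, 7.76% higher in the mutant) and the median log2 difference was 0.10, against -0.01 over all 12573 genes above the filter. That gene was Gata2, a factor of thyrotrophs and gonadotrophs that is also used in brain neurons, with 47.3 ± 1.33 in mutant brains and 35.4 ± 4.08 in wild-type brains (SD, n = 3 each), a log2 difference of 0.30 ± 0.12 (SE; limma adjusted p = 0.312). The other 7 above the filter included Crhr1, Neurod4 and Foxl2, with differences of 0.21, 0.18 and 0.19, and Trhr and Pax7, with -0.03 and -0.07.

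The genes that process and store prohormones are shared between the pituitary and neurons. Of 10 listed, 9 had a probe set, with 0 past an excess of 1 in any array and a median excess of -0.07 in wild-type array 3. Pcsk1, the convertase that cuts Pomc, read 13.9 to 29.8 in the mutant arrays and 20.1 to 24.5 in the wild-type arrays. Chga, a chromogranin of secretory granules, read 154 to 206 in the mutant arrays and 179 to 208 in the wild-type arrays. Of the 9 above the filter, 0 passed in limma and 0 had an unadjusted p under 0.05. Over all tested probe sets the shares were 0.389% and 13.6%, so nothing is read from these counts.

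Genes of the hypothalamus, the brain region next to the pituitary, gave 12 of 15 peptides and 7 of 8 transcription factors with a probe set. None of these 19 had an excess above 1 in any array, and the median excess in wild-type array 3 was -0.02 for the peptides and -0.01 for the factors. Ghrh, which drives growth hormone release, read 11.5, 16.4 and 14.6 in the mutant arrays and 10.1, 1.17 and 9.33 in the wild-type arrays, too dim to be tested. Avp, the vasopressin gene, read 69.1 to 92.0 in the mutant arrays and 68.2 to 77.4 in the wild-type arrays. Pmch, of the lateral hypothalamus, read 82.7 to 119 in the mutant arrays and 63.8 to 129.5 in the wild-type arrays. Among 10 peptides and 3 factors above the filter 0 passed in limma, beside 0.389% of all tested probe sets. An unadjusted p under 0.05 was found for 2 peptides, beside 13.6% of all tested probe sets.

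Those 2 were Cartpt and Crh, both higher in the mutant. Cartpt, a peptide gene of arcuate neurons, averaged 54.3 ± 2.18 in mutant brains and 36.3 ± 10.7 in wild-type brains (SD, n = 3 each; log2 difference 0.45 ± 0.15 SE, limma adjusted p = 0.257). Crh, which drives ACTH release, averaged 50.7 ± 7.85 in mutant brains and 34.01 ± 8.38 in wild-type brains (SD, n = 3 each; log2 difference 0.42 ± 0.16 SE, limma adjusted p = 0.288). Oxt, the oxytocin gene, had a difference of 0.18, Pmch of 0.19, and the factor genes Sim1 and Otp had -0.23 and 0.14.

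Receptors and targets of the pituitary hormones were also listed. Of 16 listed, 13 had a probe set, with 0 past an excess of 1 in any array. Ghr, the growth hormone receptor gene, read 79.7 to 86.9 in the mutant arrays and 82.0 to 86.6 in the wild-type arrays. Igf1, the main target of growth hormone in liver, read 189 to 246 in the mutant arrays and 169 to 228 in the wild-type arrays; wild-type array 3 gave 205. Among the 7 above the filter, 0 passed in limma, 0 had an unadjusted p under 0.05 and the median log2 difference was 0.08. Shares over all tested probe sets were 0.389% and 13.6%, so nothing is read from these counts. Socs3, an inhibitor of cytokine receptor signals, had the widest range of the 7, with 36.7 to 65.0 in the mutant arrays and 25.8 to 50.5 in the wild-type arrays, highest in mutant array 3.

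The 2 arrays highest in Gh differed from each other in transcripts of other tissues. Skeletal muscle genes were highest in mutant array 3 for 10 of 10 genes, with a median excess of 2.66 there and -0.56 in wild-type array 3. Their summed intensity was 137, 139 and 2164 in the mutant arrays and 123, 117 and 130 in the wild-type arrays. Acta1, skeletal actin, Mylpf and Myl1, myosin light chains, and Myh8, a perinatal myosin heavy chain, were among them; Mylpf read 333 in mutant array 3 and 9.10 in wild-type array 3. Cartilage and bone genes had a median excess of 1.29 in mutant array 3, with 4 of 6 genes past 1 there, and of -0.25 in wild-type array 3. Over all probe sets, 0.175% had an excess above 1 in mutant array 3. Both lists were chosen with earlier results of these data known, so nothing is read from these counts. Col2a1, the main cartilage collagen, read 30.5, 20.2 and 141 in the mutant arrays and 48.5, 18.6 and 32.5 in the wild-type arrays. Sp7, a factor of bone-forming cells, read 27.2, 30.7 and 18.0 in the mutant arrays and 27.0, 18.9 and 17.1 in the wild-type arrays, without such an excess.

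Hox genes, which are active in the hindbrain and spinal cord, ran low in wild-type array 3. Of the 8 listed, 6 were lowest there, with a median excess of -0.74, and 3 lay more than 1 below the mean of the other 5 arrays, as 0.0488% of all probe sets did. This list too was chosen with earlier results known, so nothing is read from its counts. Hoxa5 read 98.9, 103 and 162 in the mutant arrays and 286, 129 and 21.0 in the wild-type arrays. Hoxb5 read 35.2, 33.99 and 48.5 in the mutant arrays and 94.0, 46.0 and 1.79 in the wild-type arrays, and Hoxc4 39.5, 31.7 and 61.0 in mutant and 74.6, 41.0 and 8.92 in wild-type arrays. The summed Hox intensity was 277 to 444 in the mutant arrays, and 613, 341 and 104 in the wild-type arrays. Wild-type array 3, highest in Gh, was thus lowest in Hox signal, and mutant array 3, second in Gh, was second in summed Hox signal.

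**Figure D4:**
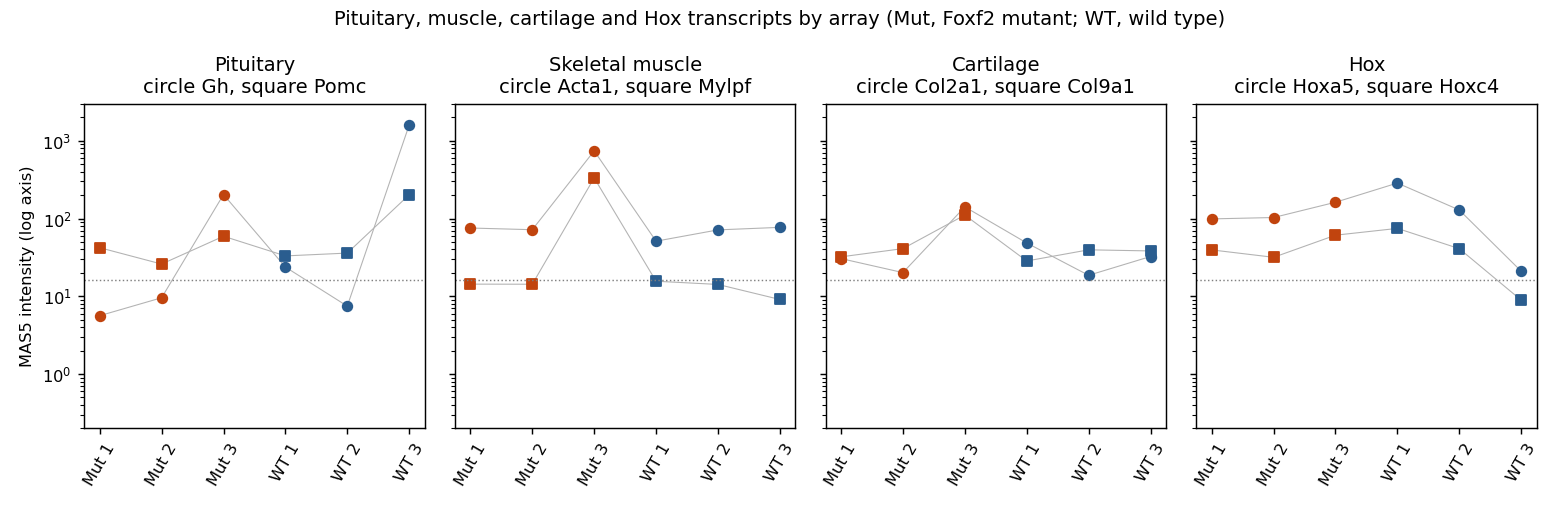
Intensity (log axis) of a pair of genes from the pituitary, skeletal muscle, cartilage and Hox lists in each array, with a dotted line at 16. Mutant array 3 is high in Gh (203), Acta1 (741) and Col2a1 (141), while wild-type array 3 is high in Gh (1592) and low in Hoxa5 (21.0).

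The remaining lists did not set wild-type array 3 apart by more than 1 in any gene. Epithelial genes, of which Epcam and Krt8 are also expressed by the pituitary, had a median excess of 0.05 in mutant array 3 and -0.16 in wild-type array 3; Epcam read 13.9 to 19.9 in the mutant arrays and 6.77 to 14.8 in the wild-type arrays. Cdh1, the epithelial cadherin gene, had an unadjusted limma p of 0.0326 between genotypes (39.9 ± 10.1 in mutant brains, 22.9 ± 10.1 in wild-type brains; SD, n = 3 each; adjusted p = 0.316). Choroid plexus genes had a median excess of -0.29 in wild-type array 3, and Ttr, the carrier of thyroid hormone, read 6420 to 6732 in the mutant arrays and 6146, 6321 and 5741 in the wild-type arrays. Sensory ganglion genes had -0.04, red cell genes -0.16 and the 2 pineal genes 0.35, both dim. Red cell genes were highest in mutant array 1, with 4 of 5 genes, among them Alas2 at 244. Over all 13 lists, 0 of 63 genes above the filter passed in limma, where 0.389% of all tested probe sets did. This 0 is near that share, and nothing is read from it. What part the dissected tissue, or any of these transcripts, had in the pituitary values was not tested.

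**Figure D5:**
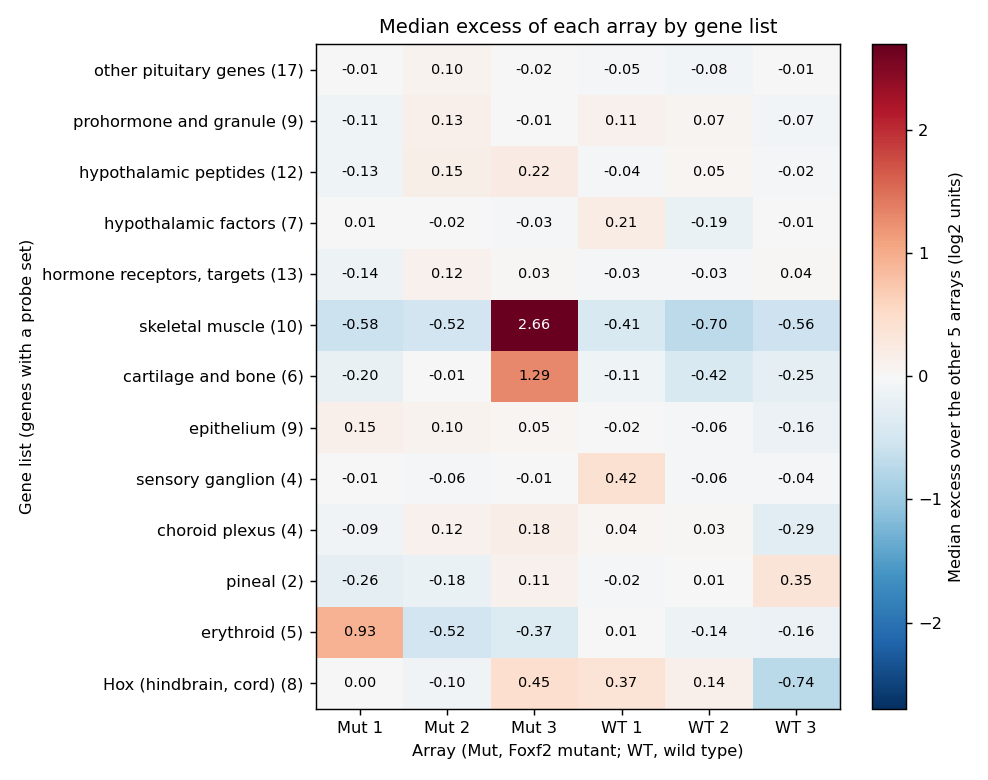
Median excess over the other 5 arrays, in log2 units, for each gene list (rows, with the number of genes that have a probe set) and array (columns, mutant then wild type). Skeletal muscle stands at 2.66 and cartilage and bone at 1.29 in mutant array 3, Hox genes at -0.74 in wild-type array 3, and the further pituitary genes between -0.08 and 0.10 in all arrays.

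The genes outside the set most like Gh over the 6 arrays were sought among 240 genes above the filter with a range of at least 1 log2 unit. Likeness was the Pearson correlation with the brightest Gh probe set over 6 arrays, a description in which wild-type array 3 weighs most. Only 2 genes exceeded 0.9. Kantr, a long noncoding RNA gene, had r = 0.986 (Spearman rho 0.829; r = 0.995 without wild-type array 3) and read 80.2, 79.7 and 154 in the mutant arrays and 98.3, 80.6 and 202 in the wild-type arrays. A probe set that the annotation assigns to Mir1931 had r = 0.927 (rho 0.829; r = 0.833 without wild-type array 3) and read 16.4, 11.2 and 33.8 in the mutant arrays and 27.7, 11.1 and 54.4 in the wild-type arrays. The next 8 were Hspa1b, Ctse, Ift27, Zfp853, Arhgap39, Fbxo36, Gas7 and Pigt, at 0.809 down to 0.547. Within the set, r was 0.944 and 0.947 for the Pomc probe sets, 0.931 for Tshb and 0.887 for Cga, and without wild-type array 3 it was 0.736 to 0.773 in these 4. With that array left out, Cga read at most 3.02 and Tshb at most 11.4, so their r there rests on dim readings. Over all 6 arrays r was 0.557 for Ghrhr, 0.449 for Prl, 0.01 and -0.284 for the Pitx1 probe sets and -0.76 for Lhb, all of them dim on every array.

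Genes outside the set were ranked by excess at their brightest probe set, where that was above the filter. In wild-type array 3 the first were Hspa1b, Xist, Smim27, Mir1931, Kantr, 6330415B21Rik, Gng4, Gm1976, Exosc9 and Ctse, from 1.70 down to 0.76. Among all probe sets, ranks 8, 10 and 12 went to single ones of Mapk14 (2.06), Trp53bp1 (1.73) and Fam199x (1.61). These were not the brightest of their gene or lay below the filter. Hspa1b, an inducible heat shock gene, read 105, 59.1 and 113 in the mutant arrays and 44.4, 101 and 296 in the wild-type arrays. Xist, the RNA of the inactive X chromosome, read 1002, 12.97 and 2400 in the mutant arrays and 2122, 2186 and 1956 in the wild-type arrays. Its excess in wild-type array 3 thus came from the low reading of mutant array 2, and other arrays read higher. Gng4 and Gm1976 were highest in wild-type array 2. In mutant array 3 the first 5 were the muscle genes Myl1, Actc1, Mylpf, Acta1 and Myh8, from 4.41 down to 2.64. The first 5 of wild-type array 1 included Hoxa5 and Hoxb5, and the first 5 of mutant array 1, mutant array 2 and wild-type array 2 had no excess above 2.05.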

How the data were processed

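Per the submitters' processing notes the authors' values are MAS5 intensities, with no version stated, and per the labels' protocols RNA was labelled with biotin. The deposited intensity table was already scaled, with a mean of 100.0 on each array after leaving out the lowest and highest 2% of probe sets, and was not normalized again. A change in the amount of RNA per brain would not show after this scaling, and dim MAS5 values carry much error.

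Of 45101 probe sets, 64 controls were left out and 45037 fitted; 34945 had 1 gene symbol, 932 several and 9160 none listed. The Entrez gene of 34741 of the singly named ones was found in the RefSeq table of GRCm38.p6. Values were analysed as log2(intensity + 16), a scale that understates changes of dim genes, with limma 3.58.1 in R 4.3.3 (lmFit, eBayes with trend), two-sided, Benjamini-Hochberg adjusted over 27022 probe sets whose mean reached the 40th percentile, about 13.2. The fit was tested on simulated data. The SE of list genes is that of limma, which draws on all probe sets, and is not comparable with the SE of the members, taken from their group SDs. The 63 list genes tested were represented by their brightest singly named probe set, and 14 of 120 list entries had none. The members and lists were chosen with earlier results of these data known. Outside the members, named genes were list members past the threshold or with the widest range, the 10 most like Gh, and those with the largest excess per array (10 in wild-type array 3, 5 elsewhere); any gene of the pituitary, prohormone, hypothalamic and receptor lists could be named. Alternatives covered the offset, filter, normalization, variance model, replicate block and each array left out. The labels do not say whether samples were separate litters, so a p-value reflects only how these 6 samples scatter, which may be technical, and their number limits precision.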

Additional observations from a re-analysis of the deposited data

How the results depend on the processing

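The count of list genes past the limma threshold was 0 under all 16 alternatives. Several of these called 0 probe sets of the whole series, which fixed the count there. In the main fit 0.389% of all tested probe sets passed, so nothing is read from this count. The number of pituitary probe sets with an excess above 1 in wild-type array 3 was 8 under offset 64, quantile normalization, median centring and with mutant array 3 set aside (chosen after seeing the data), and 10 with offset 1. Those added with offset 1 were the dim Prl (1.47) and Ghrhr (1.235). The sign of the Gh, Pomc, Cga and Tshb differences turned without wild-type array 3; that of the dimmer Pomc probe set and of Cga also without both arrays 3, an alternative chosen after seeing the data. The sign of the dimmer Pitx1 probe set turned in 5 alternatives, from a value near 0. The sizes depend on the offset. In excess, offset 64 and offset 1 gave Gh 3.68 to 4.09 and 6.17 to 7.07, Cga 1.39 and 5.48, Tshb 1.09 and 4.03, the brighter Pomc probe set 1.37 and 2.39, the dimmer 1.62 and 4.04, and Lhb -0.19 and -2.78.

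The count over all tested probe sets was 105, 99 of them higher in the mutant. It became 181 with offset 1, 64 with offset 64, 56 with median centring (50 higher), 116 with quantile normalization, 52 without the filter, 167 with the 60th percentile filter, 0 without the variance trend, 225 with the variance model fitted on tested probe sets alone (chosen after seeing the data) and 0 without both arrays 3. With 1 array left out it ran from 0 to 34, at 34 without wild-type array 3, 28 without mutant array 1 and 0 without any of the other 4; the cause was not tested. Same-numbered arrays of the groups correlated at 0.186, 0.134 and 0.0917 in their deviations from the group means, and the other 6 pairs at -0.188 to 0.052. Each of the 6 arrays correlated best with its own number, a hint from the data, but the labels give no pairing and it is not established here. With the replicate block the count was 220, and that of list genes stayed at 0.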
